A study of Mus musculus with 22 samples.

Results

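Livers of mice fed a high-fat diet (HFD) and treated with DTMB, an agent the labels give by code name only, were compared with livers of mice on the same diet that received vehicle. The comparison was set by library and covers all genes: 4 HFD DTMB and 4 HFD vehicle libraries, 8 of the 22 libraries of the series. All mice were wild-type (WT) males of the C57BL/6J strain, and both groups carry the label MASLD, for fatty liver disease of metabolic origin. The oral dose of DTMB was 10 mg/kg each day. As a reference for levels, 3 libraries of mice of the same sex, strain and genotype on normal diet with vehicle were used, from the same cohort. A second cohort of 11 libraries, 4 of mice on normal diet and 7 of mice on a diet deficient in methionine and choline (MCD), 4 with vehicle and 3 with DTMB, is used for the comparison of diets at the end and for a fit of all 22 libraries. The labels number the libraries as biological replicates. Age, the length of feeding and treatment, and whether a library is 1 mouse are not stated in any source used here, so p-values measure the spread between these libraries.

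A high-fat diet makes hepatocytes store triglyceride in lipid droplets. Kupffer cells and recruited monocytes sense lipid and microbial products through Toll-like receptors and NF-kB, and stellate cells respond to injury by depositing collagen. Hepatocytes also make most plasma proteins on ribosomes at the endoplasmic reticulum (ER), whose folding load is met by the unfolded protein response.

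Poly(A) RNA was sequenced in strand-specific libraries, and the deposited values are raw counts per gene. The 8 libraries held 53.6 to 63.2 M counts. Levels are given as CPM, counts per 1e+06 of a library total scaled by its TMM factor, and each log2 fold change is DTMB minus vehicle with its standard error (SE), tested with edgeR's quasi-likelihood F test. A gene is called, and said to have risen or fallen, at a Benjamini-Hochberg adjusted p under 0.05 over all genes tested. Alb lay at 55776 to 70668 CPM and Apob at 4481 to 7120 CPM in the 8 libraries, and all 8 hepatocyte genes used to check the tissue were detected in each. Transcripts of pancreatic acinar cells, such as trypsin and lipase genes, summed to 781, 8.70, 11.4 and 5205 CPM in vehicle replicates 1 to 4 and to 13.2, 18.2, 3269 and 21.7 CPM in DTMB replicates 1 to 4. Vehicle 1, vehicle 4 and DTMB 3 therefore stood apart, each above 100 CPM. An exact permutation test of the group means, which does not test single libraries, gave a two-sided p of 0.714 (smallest possible 0.0286). None of the 31 acinar genes tested was called. Leaving out the libraries above 100 acinar CPM kept 2 vehicle and 3 DTMB libraries, beside 1 of normal diet.

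With DTMB, 1978 of 15597 genes (12.7%) were called, 1036 higher (6.64%) and 942 lower (6.04%). Larger changes were mostly falls: past a log2 fold change of 1 in either direction, 62 genes rose (0.398%) and 215 fell (1.38%). Of 5904 genes at 10 to 100 CPM, 554 rose and 420 fell. Of 1238 genes above 100 CPM on average, 260 rose and 26 fell. Of 3599 genes under 1 CPM, 17 rose and 93 fell. By library size alone the split was 406 higher and 2393 lower and the median of all genes moved from -0.01 to -0.17 on the log2 scale, so directions below are relative to the TMM scale. Dropping a single library left 483 calls for vehicle 1, 903 for vehicle 2, 656 for vehicle 4, 957 for DTMB 2, 797 for DTMB 3 and 537 for DTMB 4, and up to 2562 for vehicle 3. Where a gene list below is given without 1 library, it is the library whose loss left the fewest calls in that list. Without vehicle 3 or DTMB 1 many lists had more calls, and that count is given for some of them. No gene was called without the acinar libraries, where 2182 of 16101 (13.6%) had an unadjusted p under 0.05 in edgeR's test. Of 206 called genes chosen by the naming rule, 90 kept their call without any 1 library, and all 206 kept their direction without the acinar libraries. The genes were chosen on values of these same libraries, so a reversal was unlikely from the start. The kept direction is therefore no separate support.

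The fold changes also ran with transcript length. Among 2363 genes with transcripts under 1000 nt, 386 rose and 108 fell, with a median log2 fold change of 0.08. Of 2346 genes of 4000 nt and over, 40 rose and 275 fell, with a median of -0.14. For genes of at least 10 CPM other than ribosomal protein genes, the median log2 ratio to the vehicle mean went from 0.09 in the shortest to -0.03 in the longest class in DTMB 1, from 0.11 to -0.05 in DTMB 2, from 0.15 to -0.15 in DTMB 3 and from 0.16 to -0.16 in DTMB 4. Vehicle libraries spanned -0.04 to 0.08 in the shortest class and -0.02 to 0.02 in the longest. The slope was thus steepest in DTMB 3 and DTMB 4, and vehicle 3 leaned the same way. In a fit with offsets for this trend per library, added after seeing the data, 1614 genes were called, 666 higher and 948 lower, and 1332 of the 1978 kept their call and direction. Of the 206 called genes that the naming rule of the methods selects, 177 kept their call with the offsets. Of those printed below, Tff3, Ciart, Tgif1, Dgat2, Tm7sf2, Atf4, Lyve1, Hbb-bs and Hbb-bt lost it (adjusted p 0.0520 to 0.118).

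**Figure D1:**
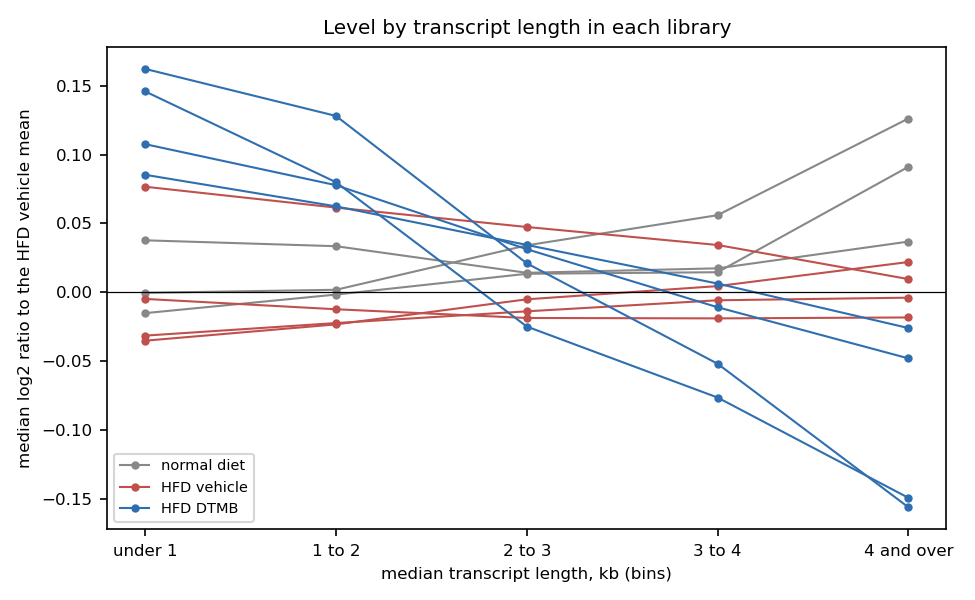
Median log2 ratio to the HFD vehicle mean (vertical axis) of genes of at least 10 CPM, without ribosomal protein genes, by class of transcript length in kb (horizontal axis), with 1 line per library. The DTMB lines fall from the shortest to the longest class, most in DTMB 3 (0.15 to -0.15) and DTMB 4 (0.16 to -0.16).

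Fkbp5, Zbtb16 and Spry4 were among the rises with the largest fold changes. Fkbp5 (chromosome 17, 28398753 to 28486149 in GRCm38.p6, as for the positions below), a co-chaperone of steroid receptors, measured 20.2, 28.4, 43.0 and 48.8 CPM in vehicle replicates 1 to 4 and 131, 125, 138 and 89.4 CPM in DTMB replicates 1 to 4. Every DTMB library lay above the highest vehicle library and DTMB 4 was the lowest of them, a log2 fold change of 1.78 ± 0.29 (adjusted p = 0.00987). The transcription factor gene Zbtb16 (chromosome 9, 48651797 to 48836225) was at 4.69, 8.11, 26.1 and 19.9 CPM with vehicle and at 56.3, 53.7, 53 and 41 CPM with DTMB. Vehicle replicates 3 and 4 were well above replicates 1 and 2 yet below all DTMB libraries, and the change was 1.80 ± 0.41 (adjusted p = 0.0196). Spry4, an inhibitor of receptor tyrosine kinase signalling, held 2.90, 3.22, 3.07 and 3.82 CPM with vehicle and 8.03, 9.36, 12.3 and 7.35 CPM with DTMB. Its groups did not overlap, with a rise of 1.51 ± 0.18 (adjusted p = 0.00410), and normal-diet livers were lower still at 1.38, 1.94 and 2.13 CPM.

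Smaller rises with little spread were found in Map3k5, Nnmt, Retreg1 and Ipmk. Map3k5, the stress-activated kinase ASK1, was at 26.7, 26.0, 30.3 and 25.4 CPM with vehicle and 41.6, 49.6, 45.5 and 47.7 CPM with DTMB. The DTMB libraries lay between the vehicle libraries and the normal-diet libraries, which held 53.2, 54.4 and 56.1 CPM, and the rise over vehicle was 0.77 ± 0.075 (adjusted p = 0.00143). Nicotinamide N-methyltransferase, Nnmt, was at 89.0, 93.8, 93.5 and 87.6 CPM with vehicle and 144, 156, 174 and 142 CPM with DTMB, again without overlap (0.76 ± 0.086, adjusted p = 0.00410). Retreg1, a receptor for autophagy of the ER, rose by 0.95 ± 0.12 and Ipmk, an inositol polyphosphate kinase, by 0.55 ± 0.069. All of these calls held without any 1 library, and the log2 fold changes without the acinar libraries were 1.69 for Fkbp5, 1.56 for Zbtb16, 1.39 for Spry4 and 0.72 for Map3k5. Some other rises were less even between libraries: Hsd3b5 (2.92), Scara5 (2.08), Tff3 (2.03), Ciart (1.56) and Bhlhe41 (1.98) were not called without vehicle 1 or without DTMB 4, among others (adjusted p up to 0.103). Hsd3b5, a steroid dehydrogenase of male liver, ranged from 0.279 to 20.1 CPM with vehicle and from 35.5 to 88.6 CPM with DTMB.

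Among the clearest falls was Hr (chromosome 14, 70554056 to 70573548), a corepressor of nuclear receptors, with 2.93, 2.57, 2.52 and 2.66 CPM in vehicle replicates 1 to 4 and 0.737, 0.383, 0.642 and 0.643 CPM in DTMB replicates 1 to 4. The vehicle libraries were nearly equal and all DTMB libraries were far below them, a log2 fold change of -2.14 ± 0.20 (adjusted p = 0.00143). Normal-diet livers had 4.60, 3.53 and 3.00 CPM, so the treated livers lay below both other groups. Anxa2 (chromosome 9, 69453683 to 69491792), an annexin that binds membranes and actin, was at 30.9, 31.4, 24.7 and 48.1 CPM with vehicle and 13.1, 10.2, 13.4 and 9.72 CPM with DTMB. The groups were apart, with vehicle 4 the highest, and the change was -1.54 ± 0.18 (adjusted p = 0.00410). Ly6d, a lipid-anchored surface protein, fell from 17.7, 8.83, 15.9 and 17.9 CPM to 4.94, 2.25, 3.59 and 2.54 CPM (-2.18 ± 0.29, adjusted p = 0.00523). Here vehicle 2 was the low vehicle library and DTMB 1 the high treated one, without overlap. Sh3pxd2a, a scaffold of invadopodia, fell by 0.80 on the log2 scale (SE 0.073), and Ermp1, a metallopeptidase of the ER, by 0.63 (SE 0.077). Sprr1a (-4.12), the largest fall that the naming rule took, and Fam83a (-2.25) kept their calls without any 1 library. Acod1 (-3.09) was not called without vehicle 1 or DTMB 4, among others (adjusted p up to 0.105). Without the acinar libraries the changes were -2.10 for Hr, -1.35 for Anxa2, -1.92 for Ly6d and -0.86 for Sh3pxd2a.

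**Figure D2:**
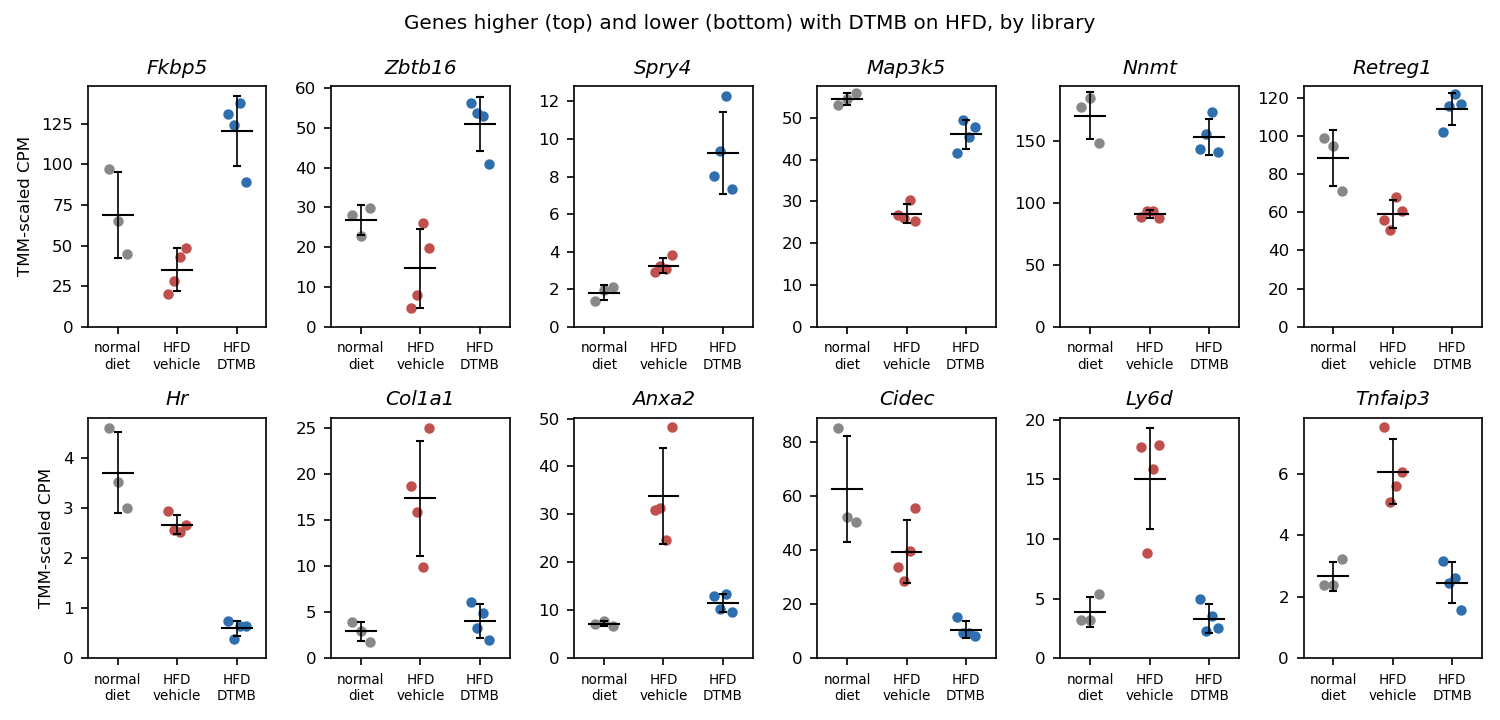
TMM-scaled CPM (vertical axes, from 0) of 6 genes that rose and 6 that fell with DTMB, in normal-diet (grey), HFD vehicle (red) and HFD DTMB (blue) libraries, with 1 point per library, and lines and bars for the mean and SD. In all 12 genes the 4 DTMB points lie apart from the 4 vehicle points, as in Fkbp5, where the lowest treated library is at 89.4 and the highest vehicle library at 48.8 CPM.

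Several receptors of innate sensing were lower with DTMB. Of 22 Toll-like receptor genes and adaptors, 6 fell and none rose, with a median log2 fold change of -0.72 beside -0.01 over all genes. Tlr12, which senses profilin of protozoa, was at 24.5, 24.1, 31.9 and 26.8 CPM with vehicle and 12.9, 10.7, 10.5 and 14.0 CPM with DTMB. The highest treated library, DTMB 4, was far below the lowest vehicle library, vehicle 2 (-1.16 ± 0.17, adjusted p = 0.00689). The flagellin receptor Tlr5 fell from 13.4, 16.9, 16.6 and 16.4 to 10.7, 10.2, 8.33 and 10.2 CPM (-0.68 ± 0.11), and the lipopolysaccharide co-receptor Cd14 from 5.50, 2.81, 3.37 and 5.34 to 1.92, 1.49, 1.88 and 0.948 CPM (-1.45 ± 0.29). In both, all treated libraries lay below all vehicle libraries. Named after their values were seen, the other 3 falls were Tlr2 (-1.75), Tlr4 (-0.80) and the adaptor Ticam2 (-1.33). The list's median was -0.19 without the acinar libraries, against -0.72 with them, and 4 members fell with length offsets and 10 without vehicle 3.

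Of 21 NF-kB subunits, kinases and feedback inhibitors, 6 fell and none rose (median -0.14). Tnfaip3, the deubiquitinase A20 that NF-kB induces to limit its own activity, was at 7.54, 5.08, 5.60 and 6.07 CPM in the vehicle libraries and 3.18, 2.46, 2.62 and 1.57 CPM in the DTMB libraries. Each treated library was below each vehicle library, a change of -1.31 ± 0.20 (adjusted p = 0.00874), and normal-diet livers had 2.40, 2.40 and 3.22 CPM. Nfkbie, which encodes the inhibitor IkB-epsilon, was at 3.69, 2.41, 1.90 and 3.03 CPM with vehicle and 1.56, 1.07, 1.43 and 1.15 CPM with DTMB. Vehicle 3 came closest to the treated libraries without reaching them (-1.08 ± 0.21, adjusted p = 0.0120). Tnip1, a partner of A20, fell by 0.67 (SE 0.15), and the subunits Relb (-1.08), Nfkb2 (-0.68) and Nfkb1 (-0.31), named after their values were seen, were called lower as well. The list's median was -0.00 without the acinar libraries, and 2 members fell without vehicle 1. With length offsets 7 fell. Tnip1 was not called without vehicle 1, vehicle 4, DTMB 3 or DTMB 4 (adjusted p up to 0.0633).

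Of these genes, the promoters of Tnfaip3 and Nfkbie are shown because the pair fell furthest among members whose window holds the NF-kB motif. The windows are the 250 bases before the RefSeq transcription start (GRCm38.p6), 5′ to 3′ on the gene's strand, with matches to the motif on either strand in capitals.
Tnfaip3 (chr10:19015411-19015660, minus strand): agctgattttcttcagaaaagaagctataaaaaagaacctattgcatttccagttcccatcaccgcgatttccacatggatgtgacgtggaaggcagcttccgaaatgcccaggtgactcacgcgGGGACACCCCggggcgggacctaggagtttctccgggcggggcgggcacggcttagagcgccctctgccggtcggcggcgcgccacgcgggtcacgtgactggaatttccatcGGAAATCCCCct
Nfkbie (chr17:45555450-45555699, plus strand): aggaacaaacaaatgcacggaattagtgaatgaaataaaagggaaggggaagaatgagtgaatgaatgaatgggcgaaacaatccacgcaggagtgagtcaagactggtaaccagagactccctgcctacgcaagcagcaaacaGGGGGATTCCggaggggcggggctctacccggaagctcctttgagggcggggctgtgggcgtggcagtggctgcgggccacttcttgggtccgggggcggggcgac
The matches begin 125 and 12 bases before the start in Tnfaip3 and 106 bases before it in Nfkbie. A match was present in 629 of 11748 genes tested that have a window (5.35%), in 1281 of all 32851 windows (3.9%) and in 7 of the 17 list members with one. These 7 comprised all 4 members that fell and have a window (Tnfaip3, Nfkbie, Tnip1 and Nfkb2) and 3 of 13 that were not called (Rel, Nfkbia and Cyld). Among chemokine ligands 4 of 13 with a window held it: the 1 that rose (Ccl9, named after its value was seen), 1 of 2 that fell and 2 of 10 not called. The NF-kB list was made of genes of that pathway, so its share of matches is no result of the treatment. The motif was searched by letters alone and says nothing of binding.

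Among chemokine ligands, 4 of 20 fell and 1 rose, and 1 fell without vehicle 1 and 10 without vehicle 3. Ccl2, the main monocyte attractant, was at 3.58, 1.21, 1.10 and 2.83 CPM with vehicle and 0.593, 0.242, 0.214 and 0.406 CPM with DTMB. Vehicle replicates 1 and 4, which carried acinar transcripts, were above replicates 2 and 3, and all 4 exceeded every treated library (-2.58 ± 0.44, adjusted p = 0.00987). Without the acinar libraries the log2 fold change was -1.47. The neutrophil chemokine Cxcl1 followed at -1.21 and Cxcl14 at -1.26. Chosen after their values were seen, Cxcl16 was at -0.64 and Ccl9, the single rise, at 0.70. Of 22 interleukin-1, TNF and inflammasome genes, 5 fell and 2 rose, and none fell without vehicle 1 and 4 with length offsets. Il1b was at 1.77, 0.931, 0.855 and 1.56 CPM with vehicle and 0.377, 0.362, 0.395 and 0.220 CPM with DTMB. These low levels did not overlap (-1.91 ± 0.40, adjusted p = 0.0160), the call being lost without vehicle 1 or DTMB 4. The 2 rises were the interleukin-1 receptor gene Il1r1 (1.13 ± 0.29) and its accessory chain Il1rap (0.41 ± 0.077). Of 14 chemokine receptors 3 fell (Cx3cr1 -1.32, Ccr2 -1.45 and Cxcr4 -0.96) and none rose, with a median of -0.95, all 14 values being below 0. These 3 genes were named after their values were seen. No receptor was called without vehicle 1, vehicle 4, DTMB 2, DTMB 3 or DTMB 4, and 4 fell without vehicle 3. Lifr, the receptor of leukemia inhibitory factor, rose by 0.58 ± 0.088. Without vehicle 1, Cxcl1, Cxcl14, Il1b and Il1r1 were not called, and other single libraries had the same effect (adjusted p up to 0.0909).

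Interferon-responsive genes were lower in part. Of 18 GTPases induced by interferon-gamma, which attack intracellular vacuoles, 12 fell and none rose, and the median was -1.15. Gbp10 measured 109.8, 39.7, 30.3 and 56.7 CPM with vehicle and 24.2, 13.5, 21.9 and 16.3 CPM with DTMB. Vehicle 1 was by far the highest and the groups did not overlap (-1.64 ± 0.37, adjusted p = 0.0191). In normal-diet livers it was at 3.92, 3.59 and 7.12 CPM. No GTPase was called without DTMB 2, and the median was -0.53 without the acinar libraries. Of 34 interferon-stimulated genes 11 fell, led by Parp14 (-0.85 ± 0.14) and the oligoadenylate synthetase-like gene Oasl2 (-1.05 ± 0.23), with a median of -0.38 that became -0.18 without the acinar libraries. Without vehicle 1 the list had 1 fall. Of 21 MHC class I and peptide loading genes, 5 fell, or 1 without vehicle 1, with the peptide-loading chaperone Tapbp at -0.36 ± 0.073 and the transporter Tap1 at -0.53 ± 0.14. In MHC class II, 6 of 11 fell, and none did without vehicle 1. H2-Aa was at 62.2, 36.5, 17.9 and 42.2 CPM with vehicle and 22.7, 14.6, 21.9 and 10.6 CPM with DTMB. Vehicle 3 lay inside the treated range, so the groups overlapped, and the change was -1.19 ± 0.33 (adjusted p = 0.0367). Reads of the H2, Gbp and Tgtp families may be shared between near-identical copies, so single members are uncertain. Gbp10 was not called without DTMB 2 or DTMB 4, and Oasl2, Tap1 and H2-Aa were not without vehicle 1 or DTMB 4, among others (adjusted p up to 0.107). With length offsets 11 GTPases, 10 interferon-stimulated, 8 MHC class I and 5 MHC class II genes fell.

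Of the immune cell lists, that of monocytes and lipid-associated macrophages held the most falls. Of 24 markers of monocytes and lipid-associated macrophages, 9 fell and none rose (median -1.02, or -0.52 without the acinar libraries), and their summed level was 169 to 331 CPM with vehicle and 122 to 183 CPM with DTMB. Vehicle 3 had the lowest vehicle sum, inside the treated range. Cd9 fell by 0.44 (SE 0.093), the macrophage gene Ms4a7 by 2.08 (SE 0.50) and the actin-capping protein Capg by 1.00 (SE 0.24). None of the list fell without vehicle 1 and 18 fell without vehicle 3, and these 3 then had adjusted p of at most 0.0741 over all single left-out libraries. Of 18 Kupffer cell markers 1 (Nr1h3) rose and none fell, but 16 of 18 values were below 0 (median -0.37), 7 fell without vehicle 3 and 4 with an acinar covariate. The sums were 406 to 841 CPM with vehicle and 459 to 598 CPM with DTMB. Of 16 B and plasma cell markers 1 fell, Cd79a (-1.54), and 1 rose, with a median of -1.07. Vehicle 2 stood apart in this list. The sums were 370, 559, 366 and 345 CPM in vehicle replicates 1 to 4 and 409 to 443 CPM with DTMB. Vehicle replicates 1, 3 and 4 thus lay below all treated libraries in this sum, so the median does not describe an even fall. The fall was not called without vehicle 1, among others. No neutrophil (0 of 7), dendritic cell (0 of 11) or T and natural killer cell marker (0 of 25) was called, and their medians were -0.61, -0.21 and -0.62. Neutrophil markers, of which 7 of 15 passed the filter on low counts, summed to 2.82 to 7.13 CPM with vehicle and 2.40 to 4.19 CPM with DTMB, and T and natural killer cell markers to 6.94 to 15.5 CPM and 6.40 to 10.0 CPM. In bulk liver RNA, fewer cells of a type and less RNA per cell cannot be told apart. The part of these cells in the falls of inflammatory genes was not tested.

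Genes of the extracellular matrix were lower with DTMB. Of 25 collagen genes, 14 fell and none rose, with a median log2 fold change of -0.89. Col1a1 (chromosome 11, 94936224 to 94953042), a chain of the main fibrillar collagen, was at 18.7, 15.8, 9.89 and 24.9 CPM in vehicle replicates 1 to 4 and 6.08, 3.26, 4.87 and 1.96 CPM in DTMB replicates 1 to 4. All treated libraries were below the lowest vehicle library, vehicle 3 (-2.10 ± 0.36, adjusted p = 0.00987), and normal-diet livers had 3.96, 2.96 and 1.82 CPM. Col15a1, a collagen of basement membrane zones, fell from 3.70, 5.35, 3.84 and 5.40 to 2.12, 2.56, 1.61 and 1.44 CPM (-1.25 ± 0.20), also without overlap, and Col6a3 by 1.06 (SE 0.18). Named after their values were seen, Col3a1 was at -1.62 and the basement membrane chains Col4a1 and Col4a2 at -0.95 and -0.90. The median was -0.52 without the acinar libraries, 8 collagens fell without vehicle 1, and 12 fell with length offsets.

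Of 35 matrix glycoproteins and proteoglycans, 9 fell, among them the basement membrane proteins Nid1 (-0.75 ± 0.14), Lamc1 (-0.67 ± 0.12) and Nid2 (-0.64 ± 0.15). Of 30 matrix proteases, inhibitors and lysyl oxidases, 8 fell, including the crosslinking enzyme Loxl1 (-0.90 ± 0.22) and tissue plasminogen activator, Plat (-1.31 ± 0.33). Timp1 (-2.64) and Mmp13 (-2.82), chosen after their values were seen, were the largest falls of that list. Without DTMB 4, 2 glycoproteins fell, and without vehicle 1 no protease gene did. Without vehicle 3, 17 and 14 fell, and with length offsets 8 and 7. Nid2, Loxl1, Plat, Pdgfrb and Lyve1 were not called without vehicle 1 or DTMB 4, among others (adjusted p up to 0.131). Of 20 stellate cell markers 1, the receptor gene Pdgfrb (-0.81 ± 0.20), was called lower, and their summed level was 480 to 576 CPM with vehicle and 469 to 519 CPM with DTMB. Endothelial markers had 1 of 21 lower, Lyve1 (-0.77 ± 0.23), with sums of 288 to 440 CPM with vehicle and 276 to 376 CPM with DTMB. None was called without normal-diet replicate 2, among others, or with length offsets, and 13 endothelial markers fell without vehicle 3.

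A few genes of TGF-beta and YAP signalling were lower. Of 26 TGF-beta ligands, receptors and targets, 3 fell and 1 rose, against 10 and none by library size. The called share was 15.4%, near the 12.7% of all genes. With length offsets 2 fell, without vehicle 1 only 1 fell, and without vehicle 3 it was 8. Tgfbr2, the type II receptor, was at 24.3, 24.4, 22.8 and 27.8 CPM with vehicle and 16.8, 13.5, 16.4 and 14.2 CPM with DTMB. The groups were well apart (-0.70 ± 0.093, adjusted p = 0.00523) and the treated level was also under that of normal-diet livers, 28.7, 29.2 and 24.8 CPM. The target Pmepa1 (-0.72 ± 0.18) and, named after its values were seen, Tgfbi (-0.41) fell, and the repressor Tgif1 rose by 0.41 ± 0.11. Of 28 YAP and TAZ pathway genes, 5 fell and 1 rose. Wwtr1 (chromosome 3, 57455644 to 57575910), which encodes TAZ, was at 33.2, 34.8, 29.2 and 34.1 CPM with vehicle and 19.3, 18.9, 22.3 and 19.1 CPM with DTMB. The treated libraries, DTMB 3 highest, were all below vehicle (-0.72 ± 0.082, adjusted p = 0.00410) and near the 21.3, 18.1 and 19.6 CPM of normal diet. Asap1 (-0.73 ± 0.098) and Nt5e (-0.54 ± 0.087) fell too, as did Crim1 (-0.49) and Myof (-1.02), while Nuak2 rose by 0.63, these 3 named after their values were seen. Of 20 annexins and S100 proteins, 5 fell, such as Anxa5 (-0.93 ± 0.13) and S100a6 (-1.18 ± 0.26), and 1 rose. Of 30 genes of the actin cytoskeleton and adhesion 7 fell, among them vinculin, Vcl (-0.57 ± 0.096). Without vehicle 1 these lists had 2 and 1 falls, and with length offsets 6 and 11. Of 39 proliferation genes 8 fell, such as Mcm4 (-0.81 ± 0.15) and Mki67 (-1.44 ± 0.32), and 1, Tk1, rose by 0.75 ± 0.18. With length offsets 5 proliferation genes fell and without vehicle 3 it was 13. Without vehicle 1, 1 proliferation gene fell, and Pmepa1, Tgif1, S100a6, Mki67 and Tk1 were not called (adjusted p up to 0.0947 over single left-out libraries).

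Cidec and Cidea, lipid droplet genes of the CIDE family, were lower with DTMB. Cidec (chromosome 6, 113424634 to 113435760), which fuses droplets, was at 33.7, 28.6, 39.8 and 55.5 CPM in vehicle replicates 1 to 4 and 15.4, 9.38, 9.35 and 8.24 CPM in DTMB replicates 1 to 4. All treated libraries were below all vehicle libraries (-1.90 ± 0.25, adjusted p = 0.00523), and also below the normal-diet libraries at 85.1, 52.1 and 50.5 CPM. Cidea, its relative, was at 2.37, 3.06, 3.52 and 7.38 CPM with vehicle and 0.557, 0.302, 0.741 and 0.237 CPM with DTMB. The groups did not overlap (-3.14 ± 0.46, adjusted p = 0.00779), and the normal-diet libraries, at 0.465, 0.134 and 0.460 CPM, overlapped the lower treated libraries or lay below them. The droplet coat gene Plin4 fell by 1.12 (SE 0.28), and 3 of 15 genes of this list fell in all. Mogat1, a monoacylglycerol acyltransferase, fell from 6.24, 6.17, 5.0 and 7.80 to 3.49, 2.28, 3.33 and 2.57 CPM (-1.11 ± 0.18), while Dgat2, which makes triglyceride, rose by 0.32 ± 0.075. Without the acinar libraries the changes were -1.64 for Cidec and -3.16 for Cidea. Adipose genes had 3 of 13 lower, Cidec, Cidea and Pparg, summing with the rest of that list to 2298 to 3115 CPM with vehicle and 2168 to 2383 CPM with DTMB. Without vehicle 1, Plin4, Dgat2 and Pparg were not called (adjusted p up to 0.0870 over single left-out libraries).

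In de novo lipogenesis 5 of 21 genes fell and 3 rose, the median was -0.35 and 5 values were above 0. By library size 12 fell and 1 rose, and 2 fell without DTMB 4 and 9 without DTMB 1. The NADPH-forming enzymes Pgd (-0.54 ± 0.098) and Me1 (-0.44 ± 0.083) fell, and with their values already seen Tkt (-0.40), Acaca (-0.43) and Acacb (-0.60) are named with them. The liver X receptor gene Nr1h3 rose by 0.27 ± 0.055 and Mid1ip1, named after its values were seen, by 0.43. Oxidation was nearly level: 2 of 46 fatty acid oxidation genes rose (Etfb 0.47 ± 0.087, Eci2 0.41 ± 0.085) and 2 fell, among them Ucp2 (-0.98 ± 0.21). None of 6 ketogenesis genes was called. Cholesterol synthesis had 2 of 27 higher, Tm7sf2 (0.61 ± 0.17) and Insig1 (0.51 ± 0.15), but none higher and 2 lower by library size. Of 22 apolipoproteins and remodelling genes 8 rose, such as Apoc4 (0.65 ± 0.12) and Apom (0.57 ± 0.11), and 2 fell. Apoa4 was the larger fall, from 1583, 973, 1430.0 and 1746 to 939, 382, 695 and 576 CPM, without overlap (-1.14 ± 0.25). By library size 3 rose and 6 fell, with length offsets 3 rose and 2 fell, and without vehicle 1 only 2 rose. Eci2, Ucp2, Tm7sf2, Insig1 and Apoa4 were not called without vehicle 1 (adjusted p up to 0.121 over single left-out libraries).

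Cytosolic ribosomal protein genes rose almost as a block. Of 85, 72 rose and none fell, with a median log2 fold change of 0.40. Their summed level was 8983, 9285, 10162 and 9147 CPM in vehicle replicates 1 to 4 and 10859, 12137, 13246 and 14299 CPM in DTMB replicates 1 to 4. Every treated library was above every vehicle library, DTMB 4 the highest and DTMB 1 the lowest of them, and normal-diet livers were at 12145, 12982 and 11366 CPM. Rplp0, of the ribosomal stalk, was at 272, 264, 293 and 259 CPM with vehicle and 333, 363, 406 and 419 CPM with DTMB. No treated library reached down to vehicle (0.48 ± 0.078, adjusted p = 0.00987). Rpl13a rose by 0.66 ± 0.11 and Rpl22l1 by 0.90 ± 0.15. In the diet comparison of the same fit, which called 4332 of 15597 genes (27.8%) and shares the vehicle libraries, 60 of the 85 were lower on HFD than on normal diet, where 12.6% of all genes were. These transcripts are short (median 704 nt), and 46 of 85 rose with length offsets and 44 by library size alone. Without vehicle 1, 20 rose. The median without the acinar libraries was 0.33.

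Genes of the unfolded protein response also rose. Of 31 sensors, chaperones and degradation factors of the ER, 17 rose and none fell (median 0.36, and 0.35 without the acinar libraries). In the diet comparison, which shares the vehicle libraries, 14 of the 31 were higher on HFD than on normal diet, where 15.2% of all genes were. None was lower. The list's mean log2(CPM + 1) was 6.27 to 6.64 on normal diet, 6.70 to 6.89 with vehicle and 7.10 to 7.23 with DTMB. Dnajb11, an ER co-chaperone, was at 76.9, 72.6, 72.8 and 73.7 CPM with vehicle and 96.6, 106, 108 and 106 CPM with DTMB. The vehicle libraries were nearly equal and all treated ones higher (0.49 ± 0.084, adjusted p = 0.00987). The transcription factor gene Xbp1 rose from 156, 126, 140.5 and 143 to 175, 201, 205 and 221 CPM (0.51 ± 0.088), and Sec61b, of the protein channel of the ER, by 0.58 ± 0.11. Creld2 (0.97), Derl3 (1.47), Sdf2l1 (0.98), Syvn1 (0.52), Hsp90b1 (0.30) and Hspa5 (0.39) were picked for naming after their values were seen. With length offsets 16 rose, by library size 7, and without vehicle 4 also 7. Targets of ATF4 had 2 of 30 higher (6.67%), Trib3 (0.87 ± 0.19) and Atf4 itself (0.34 ± 0.091), near the 6.64% of all genes. Cytosolic heat-shock chaperones had 2 of 21 higher (9.52%), and the median of each list was -0.02. These lists and that of the unfolded protein response were not tested against each other. Trib3 and Atf4 were not called without vehicle 1 or DTMB 4 (adjusted p up to 0.109), and 1 ATF4 target rose with length offsets.

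Promoters of 4 of these genes are shown because they hold the ER stress response element, CCAAT and CCACG with 9 bases between, the site known for binding ATF6 and XBP1 with NF-Y. They are 250 bases before the RefSeq start (GRCm38.p6), all on the plus strand, and the match on either strand is in capitals.
Hspa5 (chr2:34771840-34772089): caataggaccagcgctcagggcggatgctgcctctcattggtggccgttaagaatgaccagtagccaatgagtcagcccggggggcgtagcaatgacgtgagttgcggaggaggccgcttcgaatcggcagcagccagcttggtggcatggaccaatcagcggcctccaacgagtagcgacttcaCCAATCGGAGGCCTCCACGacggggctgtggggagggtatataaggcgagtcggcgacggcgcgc
Creld2 (chr15:88819396-88819645): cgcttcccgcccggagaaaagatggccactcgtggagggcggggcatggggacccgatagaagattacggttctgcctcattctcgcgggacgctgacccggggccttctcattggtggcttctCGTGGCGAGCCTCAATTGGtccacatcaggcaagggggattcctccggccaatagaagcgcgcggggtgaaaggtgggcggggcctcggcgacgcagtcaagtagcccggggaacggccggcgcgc
Derl3 (chr10:75893148-75893397): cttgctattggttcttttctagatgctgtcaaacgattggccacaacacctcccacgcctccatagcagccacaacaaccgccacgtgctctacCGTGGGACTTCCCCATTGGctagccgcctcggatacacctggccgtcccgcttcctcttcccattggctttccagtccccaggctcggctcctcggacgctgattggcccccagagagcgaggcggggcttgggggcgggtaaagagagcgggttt
Syvn1 (chr19:6046326-6046575): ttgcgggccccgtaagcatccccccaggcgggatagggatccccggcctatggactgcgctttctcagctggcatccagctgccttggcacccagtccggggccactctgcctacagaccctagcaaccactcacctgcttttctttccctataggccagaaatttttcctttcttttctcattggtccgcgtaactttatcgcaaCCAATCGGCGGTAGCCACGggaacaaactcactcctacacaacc
The matches begin 65, 126, 156 and 44 bases before the start. The element was found in 37 of 32851 windows (0.113%) and in 21 of 11748 tested genes (0.179%), against 10 of the 26 list members with a window (38.5%). The list was made of genes of the response this element is known for. Its high share was thus given in advance and is no result of the treatment. Of these 10, named for the match alone, Hspa5, Hsp90b1, Pdia6, Dnajc3, Creld2, Syvn1 and Derl3 rose, 7 of 14 that rose and have a window. Calr, Canx and Ero1lb also hold it and were not called, 3 of 12. Hspa5, which encodes the chaperone BiP, was at 1137, 1052, 898 and 966 CPM with vehicle and 1359, 1238, 1400.2 and 1328 CPM with DTMB. Its rise was close to the threshold (0.39 ± 0.12, adjusted p = 0.0495). Derl3, a factor of ER-associated degradation, was at 2.20, 1.20, 1.00 and 1.35 CPM with vehicle and 3.31, 4.71, 3.84 and 4.05 CPM with DTMB, so it started low and changed more (1.47 ± 0.27). A match is a description of letters, not evidence of a bound site.

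**Figure D3:**
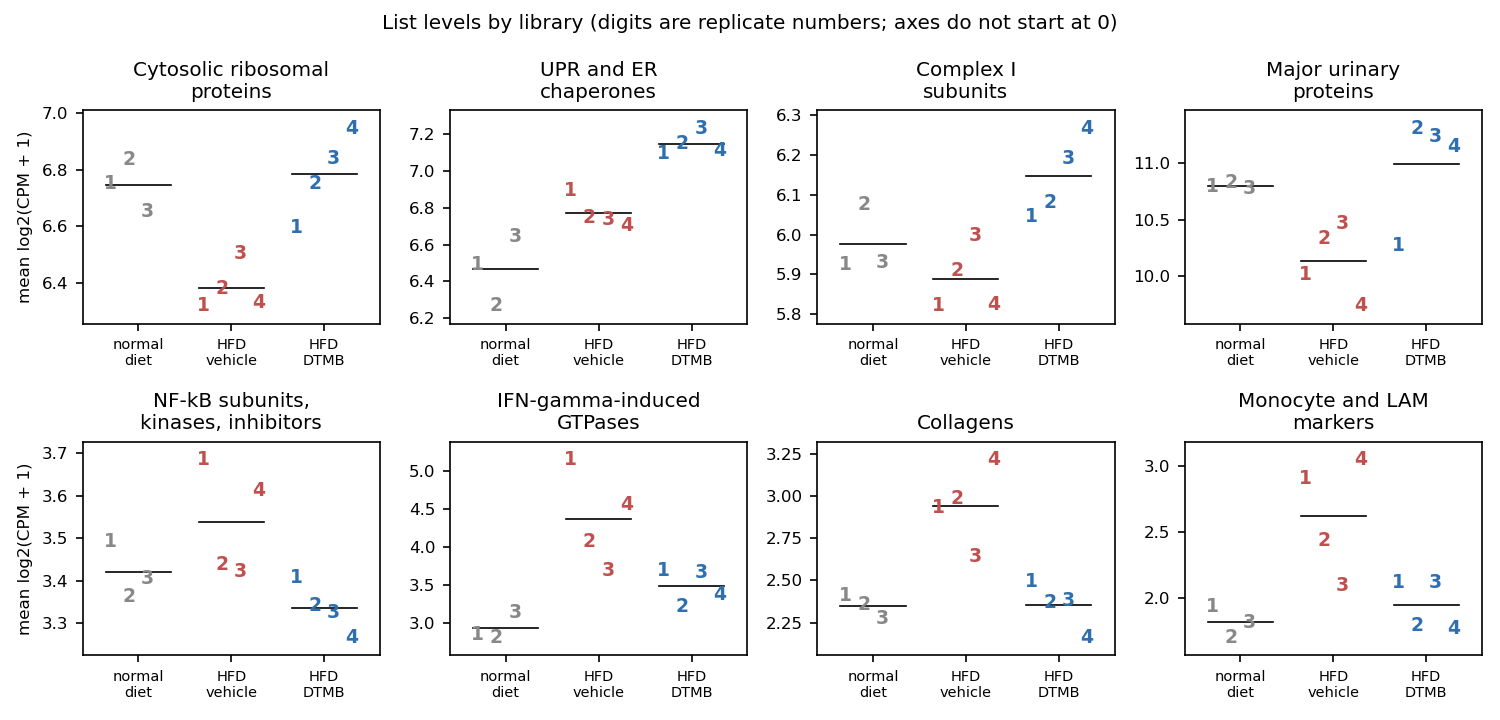
Mean over list members of log2(CPM + 1) (vertical axes, not from 0) in each library of normal diet (grey), HFD vehicle (red) and HFD DTMB (blue), with digits for the replicate and a line for the group mean. The 4 DTMB libraries lie above the 4 vehicle libraries in the ribosomal, unfolded protein response and complex I panels, while in the GTPase and monocyte panels vehicle 3 falls within the treated range.

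Some nuclear-encoded mitochondrial subunits rose by small steps. Complex I had 18 of 37 members higher and none lower (median 0.29), complexes II and III 7 of 14, complex IV 3 of 12, ATP synthase 8 of 18 and mitochondrial ribosomal proteins 20 of 78. Among all genes under 1000 nt without cytosolic ribosomal proteins, 19.0% at 10 to 100 CPM and 31.7% from 100 CPM rose. At 1000 to 2000 nt, 11.6% and 21.9% did. Complex IV (25%, median 615.5 nt) thus lay between the shares of its length class. Complex I (48.6%, 704 nt) lay above them, and mitochondrial ribosomal proteins were at 25.6% (1051.5 nt). The complex I subunit Ndufb8 was at 85.1, 87.3, 95.6 and 88.4 CPM with vehicle and 109.6, 109.7, 138 and 142 CPM with DTMB. DTMB 3 and DTMB 4 were above DTMB 1 and DTMB 2, and all were above vehicle (0.49 ± 0.093, adjusted p = 0.0115). The complex III subunit Uqcrq rose by 0.49 ± 0.087 and the ATP synthase subunit Atp5e by 0.65 ± 0.12. Mrpl53, of the mitochondrial ribosome, rose from 15.6, 16.3, 18.3 and 15 to 20.8, 24.5, 25.7 and 26.8 CPM (0.58 ± 0.088). By library size 6 complex I genes rose and 1 fell, 2 complex II and III genes rose and 1 fell, and 4 ATP synthase and 4 mitochondrial ribosomal genes rose. Without vehicle 1, 2 complex II and III, no complex IV, 1 ATP synthase and 5 mitochondrial ribosomal genes rose. With length offsets 7 complex I, 2 complex II and III, 4 ATP synthase and 9 mitochondrial ribosomal genes rose, and without DTMB 4 only 1 complex I gene did. None of the 13 mitochondrially encoded genes was called, and tricarboxylic acid cycle genes had 2 of 20 higher, but none higher and 6 lower by library size. Of 38 proteasome subunits 11 rose, such as Psmb3 (0.43 ± 0.078), or 2 without vehicle 1, and 6 with length offsets, where 1 fell, and their median of 0.13 was -0.02 by library size.

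Of 27 secreted plasma proteins, 11 rose and none fell (median 0.24). Igfbp2, which binds insulin-like growth factors, was at 156, 191, 253 and 134 CPM with vehicle and 278, 343, 320.4 and 409 CPM with DTMB. The treated libraries were higher throughout (0.88 ± 0.20, adjusted p = 0.0186) but below normal-diet livers at 475, 676 and 448 CPM. Serpina1a and Serpina1d, copies of the alpha-1 antitrypsin gene whose reads may be shared, each rose by 0.38. No secreted protein gene was called without vehicle 1, and 5 rose with length offsets. Of 23 complement genes 2 rose, C8b (0.72 ± 0.13) and C8g (0.50 ± 0.083), near the 6.64% of all genes, and the list's median was -0.01. Of 27 coagulation genes 6 rose, such as prothrombin, F2 (0.26 ± 0.060), and 1 fell. By library size no coagulation gene rose and 3 fell, with length offsets 3 rose, and without vehicle 1 none rose. Hnf4a, the transcription factor that maintains hepatocyte identity, was at 534, 555, 581 and 568 CPM with vehicle and 749, 763, 715 and 656 CPM with DTMB. The rise of 0.37 ± 0.068 (adjusted p = 0.0110) was without overlap, and did not pass by library size alone (adjusted p = 0.0755). Igfbp2, F2, Serpina1a and Serpina1d were not called without vehicle 1, vehicle 4 or DTMB 4 (adjusted p up to 0.0698). Hepatocyte markers had 6 of 15 higher, or 1 without vehicle 1, and their sum was 99808 to 115130 CPM with vehicle and 114680 to 122370 CPM with DTMB.

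Major urinary proteins (Mups), lipocalins that male mouse liver makes under pulsed growth hormone, had the highest share of rises of all lists: 18 of 21, with a median of 0.93. That share, 85.7%, was close to the 84.7% of cytosolic ribosomal protein genes. In 3 of the 21 all treated libraries lay above all vehicle libraries, beside 10.5% of all genes. The fit of all 22 libraries called 0 Mups. Mup15 was at 1203, 1506, 2028 and 899.7 CPM in the vehicle libraries and 2099, 4367, 3599.7 and 3002 CPM in the DTMB libraries. The lowest treated library, DTMB 1, was just above the highest vehicle library (1.21 ± 0.24, adjusted p = 0.0136). Mup19 rose by 1.11 ± 0.25 and Mup18 by 0.90 ± 0.20, each with DTMB 1 inside the vehicle range. Members of this cluster are near-identical, so their counts are not separate measurements. Without vehicle 1 only 1 Mup was called, 15 rose with length offsets, and the median was 0.63 without the acinar libraries. Male-biased genes had 8 of 26 higher, or 1 without vehicle 1 and 3 with length offsets, and female-biased genes 1 of 26, Cyp17a1. The steroid hydroxylase Cyp17a1 was at 38.0, 26.6, 39.3 and 30.0 CPM with vehicle and 69.1, 62.4, 52.4 and 77.8 CPM with DTMB. All treated libraries were above vehicle (0.97 ± 0.14, adjusted p = 0.00721) and DTMB 4 reached the normal-diet level of 75.4, 82.0 and 76.4 CPM. Bcl6, a repressor downstream of growth hormone, rose by 1.36 ± 0.32, and Stat5a fell by 0.46 (SE 0.071). Mup18, Mup19 and Bcl6 were not called without vehicle 1, vehicle 4 or DTMB 4 (adjusted p up to 0.0675).

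Drug-metabolising genes changed in both directions. Of 46 cytochromes P450 of families 1 to 3 and their receptors, 13 rose and 3 fell, but 5 rose and 6 fell by library size, and 6 rose and 4 fell with length offsets. Without vehicle 1 only 1 rose. Cyp1a2 was at 148, 194, 194 and 170.0 CPM with vehicle and 242, 242, 268 and 234 CPM with DTMB. The treated libraries were all higher (0.48 ± 0.099, adjusted p = 0.0146). The pregnane X receptor gene Nr1i2 rose by 0.58 ± 0.13 and Cyp2c29 by 0.52 ± 0.11. Gsta1, a glutathione transferase, fell from 8.73, 4.81, 7.83 and 17.3 to 3.27, 1.57, 3.03 and 2.1 CPM, with vehicle 4 the highest and no overlap (-1.95 ± 0.37, adjusted p = 0.0110). Of 24 NRF2 response genes 5 fell, or 2 without vehicle 1 and 9 without vehicle 3, and none rose. The smallest p was that of Ephx1, at 421, 445, 433 and 453 CPM with vehicle and 332, 323, 298 and 329 CPM with DTMB. The spread within each group was small beside the difference (-0.45 ± 0.061, adjusted p = 0.00523). Ugt1a9 fell by 0.90 (SE 0.17) and Sult1d1 rose by 0.79 ± 0.15. Nr1i2 and Cyp2c29 were not called without vehicle 1 (adjusted p up to 0.0600 over single left-out libraries).

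One-carbon, glucose and clock genes held further clear changes. Of 32 genes of methionine, folate and one-carbon metabolism, 6 rose and 3 fell, against 3 and 5 by library size, 3 and 3 with length offsets and 3 and none without vehicle 1. Gnmt, which disposes of excess methyl groups, was at 926, 1014, 1047 and 846 CPM with vehicle and 1352, 1236, 1293 and 1382 CPM with DTMB. Its groups did not overlap (0.46 ± 0.085, adjusted p = 0.0110), and Ahcy, which clears S-adenosylhomocysteine, rose by 0.50 ± 0.10. In the urea cycle and amino acid catabolism 7 of 53 rose and none fell, against 1 and 2 by library size. Among genes of 1000 to 2000 nt, where the list's median length lay, 11.6% at 10 to 100 CPM and 21.9% from 100 CPM rose. The list's share of 13.2% lay between these and so did not stand out from its length class. With length offsets 3 rose and without vehicle 1 it was 2. Among the rises were those of Tdo2 (0.39 ± 0.073) and Haao (0.35 ± 0.064), both of tryptophan breakdown. Glucose genes had 3 of 48 higher and 8 lower: Pfkfb1, a regulator of glycolytic flux, rose by 0.72 and the transporter Slc2a1 by 0.60, while Pkm (-0.80), Hk1 (-0.69) and Pfkp (-0.97), enzyme forms that hepatocytes make little of, named after their values were seen, fell. No glucose gene fell without vehicle 1, 12 fell without DTMB 1, and 7 fell with length offsets. Lgr5, a receptor of pericentral hepatocytes, fell from 9.77, 11.5, 12.2 and 7.49 to 5.81, 4.77, 4.63 and 6.28 CPM (-0.93 ± 0.16), and of 21 pericentral genes 6 rose and 3 fell, against 2 and 3 by library size, 3 and 3 with length offsets and 1 and 2 without vehicle 1. Of 19 clock genes 5 rose and 1 fell, or 3 and 1 with length offsets. Tef, an output factor of the clock, was at 56.9, 62.3, 69.5 and 77.8 CPM with vehicle and 91.7, 101, 129 and 106 CPM with DTMB. All treated libraries were higher (0.68 ± 0.13, adjusted p = 0.0110), Bhlhe41 rose by 1.98 ± 0.41 and Npas2 fell by 1.02 (SE 0.23). The time of tissue collection is not given in the sources used here. Without vehicle 1, 1 clock gene rose, and Bhlhe41, Npas2, Pfkfb1 and Slc2a1 were not called (adjusted p up to 0.0612 over single left-out libraries).

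**Figure D4:**
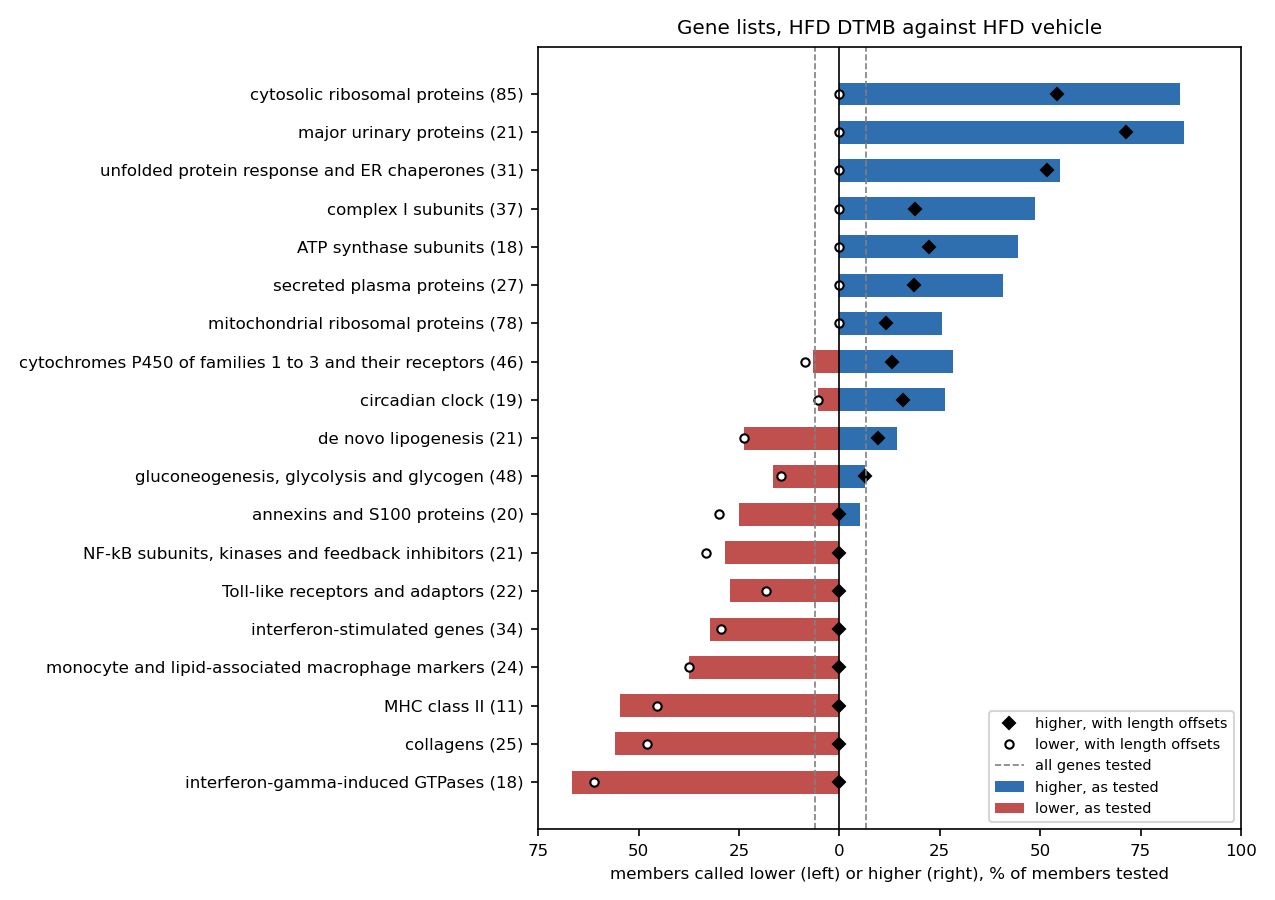
Share of tested members called lower (left, red) or higher (right, blue) with DTMB for 19 gene lists, with the number of tested members in brackets (horizontal axis in percent). Dashed lines are the shares over all genes (6.04% lower, 6.64% higher), and diamonds and circles give the shares with length offsets, which lie inside the bars for the ribosomal and complex I lists and near the bar ends for collagens.

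Of 21 immediate-early genes, which tissue handling induces, 5 fell and 1 rose, while 1 fell without DTMB 4 and 10 without DTMB 1. Egr2 fell from 1.26, 0.599, 0.387 and 0.727 to 0.108, 0.141, 0.0329 and 0.0677 CPM (-3.09 ± 0.60), Fos by 1.26 (SE 0.28), and Ier2 rose by 0.76 ± 0.14. Erythroid genes had 2 of 10 higher and none with length offsets, with Hbb-bs at 182, 166, 180.0 and 164 CPM with vehicle and 213, 645, 307 and 229 CPM with DTMB. DTMB 2 held by far the most (1.01 ± 0.29, adjusted p = 0.0403), and the copies Hbb-bs and Hbb-bt share sequence. Hbb-bs and Fos were not called without vehicle 1, vehicle 4 or DTMB 4 (adjusted p up to 0.0956). Of all 85 lists, 11 had no called member.

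The effect of DTMB on HFD was set against its effect on MCD by an interaction test over all 22 libraries. None of 16541 genes (0%) differed at an adjusted p under 0.05 in edgeR, with 1415 at an unadjusted p under 0.05. DESeq2 called 38. Within MCD no gene was called in that fit, and 1 of 16037 (0.00624%) in the MCD cohort alone, and a gene called on HFD alone is not thereby shown to differ between diets. The 6 genes of smallest p were Limk1, Zkscan14, Efna1, Impdh2, Siae and Sytl4. Limk1, a kinase that regulates actin turnover, was at -1.38 ± 0.19 on HFD and at 0.09 ± 0.19 on MCD, a difference of -1.46 ± 0.26 (adjusted p = 0.137). For Fkbp5 the log2 fold changes were 1.78 ± 0.29 and 0.09 ± 0.30, a difference of 1.71 ± 0.41 (adjusted p = 0.267). The values on HFD are those of the HFD cohort's own fit. Each diet was used in its own labelled cohort, so effects of diet and of cohort cannot be told apart.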

How the data were processed

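Liver RNA was sequenced in 22 libraries. The authors deposited raw counts per gene, per the labels' polyA, strand-specific TruSeq libraries (RIN above 7.0). The submitters' processing notes name the build mm10 and StringTie 2.1.3b, HISAT2 2.1.0, Trimmomatic 0.38 and FastQC 0.11.7, without settings. How shared reads were counted is not stated. Of 45777 genes, 22090 had no count in the HFD cohort. Gene positions are from RefSeq GRCm38.p6 (45679 matched).

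All 11 libraries of the HFD cohort were fitted in edgeR 4.0.16 (R 4.3.3) with filterByExpr, TMM factors, the quasi-likelihood F test and Benjamini-Hochberg adjustment. The SE is the absolute log2 fold change over the square root of F. CPM is over TMM-scaled totals, the acinar sum over plain totals. Comparisons between cohorts used all 22 libraries. Lengths are GENCODE M21 median protein-coding transcript lengths, known for 13354 of 15597 genes. On simulated counts, edgeR recovered 46.3%, 89.6% and 98.5% of 67, 67 and 66 genes changed 1.5, 2 and 4-fold in HFD DTMB against vehicle. It also called 7 unchanged genes (15358 genes fitted). The changed genes averaged at least 1 CPM, and the simulation held no length trend and no acinar libraries. These shares are thus not the power of the real comparison.

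The comparison and 85 gene lists (1977 genes) were chosen with earlier results of these data known. The naming rule took the 8 largest rises and falls without overlap and the 5 of smallest p each way. Both needed at least 1 CPM in the higher group. It also took up to 3 of smallest p per list (0.5 CPM) and 6 for the cohort test. Not every list gene it took is printed. Genes named outside the rule carry a remark. DESeq2 1.42.0, limma-voom 3.58.1, RLE factors, library size, other filters, 2 groups alone, a replicate block, an acinar covariate and left-out libraries were tried. Replicates all differed by more than sampling noise (chi-square over its degrees of freedom at least 26.7). Figures used matplotlib 3.10.9.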

Additional observations from a re-analysis of the deposited data

Results flagged for a closer look

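The highest or lowest library of 52 groups of 4 was compared with the spread of the other 3 by Dixon's test at its 95% critical value, and chance alone points to about 1 in 20 such groups. Bhlhe41 was at 0.944 CPM in vehicle 4, against 0.379 to 0.436 CPM in the other vehicle libraries. Wwtr1 was at 22.3 CPM in DTMB 3, against 18.9 to 19.3 CPM in the other DTMB libraries. The summed acinar genes were at 5205 CPM in vehicle 4 (8.70 to 781 CPM in the others) and at 3269 CPM in DTMB 3 (13.2 to 21.7 CPM in the others).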

How the results depend on the processing

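The count of 1978 called genes was 3028 by DESeq2, 542 with all 22 libraries in one fit, 1225 with a replicate block, 277 past a log2 fold change of 1 either way, and 0 without the acinar libraries. It ran from 483 to 2562 over fits that left out each library. The 484 called list genes were 117, 315 and 0 with all 22 libraries, the replicate block and without the acinar libraries, and 119 to 609 with each library left out. The cohort test called 38 genes by DESeq2 and 0 to 2 with each library left out. The acinar difference of -671 CPM became 563.5 CPM without vehicle 4 and ran from -1484 to 563.5 CPM. The cause was not tested. Counts were within 1.5 times of those reported by voom, RLE, library size, the filters, 2 groups, the acinar covariate and, added after seeing the data, length offsets (1614, and 366 list genes). Of the 206 called genes that the naming rule took, none reversed in any fit. All fits reuse libraries on which these genes were chosen, so this is no separate support. For the replicate block, same-numbered libraries deviated with correlations of -0.105, 0.254, -0.534 and -0.410, and not every library was closest to its own number, so the numbers were not taken as pairs. Without the acinar libraries 2 against 3 libraries limit what can be called.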

Other observations

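Small sets of genes were put together after values had been seen, and so carry no test. Of 17 genes known as glucocorticoid-responsive, Fkbp5, Zbtb16 and Tdo2 rose and none fell. The other 14 ranged from -0.33 to 1.12 on the log2 scale with adjusted p of at least 0.165 in edgeR's test, and the glucocorticoid receptor gene Nr3c1 was at -0.02. Of 6 genes known to respond to thyroid hormone, Hr, Me1 and Gpd2 (-0.35) fell. Thrsp (0.17), Dio1 (-0.02) and Klf9 (0.20) were not called, and the thyroid hormone receptor gene Thrb was at 0.11. Of PPARgamma and 7 of its lipid targets, Pparg (-0.63 ± 0.16), Cidea, Cidec, Plin4 and Mogat1 fell, while Cd36 (-0.67, adjusted p = 0.0514), Fabp4 (-0.02) and Vldlr (-0.24) did not pass.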
